A study of Mus musculus with 33 samples.

Results

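The genes described here encode the machinery by which cells present peptides on MHC class II molecules. They were chosen by name, and their Ensembl identifiers were matched to the mouse GRCm38 annotation, which found 10 members among the 31054 mouse features counted in every library. The members are H2-Ab1, H2-Aa and H2-Eb1, which encode class II chains; Cd74, the invariant chain; Ciita, the class II transactivator; H2-DMa, H2-DMb1 and H2-DMb2, which encode chains of H2-DM; and H2-Oa and H2-Ob, which encode H2-O. Their Ensembl identifiers are, in this order, ENSMUSG00000073421, ENSMUSG00000036594, ENSMUSG00000060586, ENSMUSG00000024610, ENSMUSG00000022504, ENSMUSG00000037649, ENSMUSG00000079547, ENSMUSG00000037548, ENSMUSG00000024334 and ENSMUSG00000041538. They were measured by bulk RNA-Seq in 33 libraries of sorted cells, 3 in each of 11 groups, from mice tolerant of porcine neonatal islet cell clusters (NICC) and from naive mice.

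All mice were DEREG mice on a C57BL/6 background, which carry a diphtheria toxin receptor and EGFP under the Foxp3 promoter, so that regulatory T cells (Tregs) could be sorted as CD4+GFP+ cells. Tolerant mice received 4000 islet equivalents of porcine NICC under the renal capsule with MR-1, an antibody to CD154, in repeated doses and CTLA4-Fc in a single dose, each dose being 500 µg per mouse, and their cells were sorted 100 days after transplantation. Naive mice had neither a transplant nor treatment. Naive spleens (SP) gave Tregs (SP/naive Tregs), CD4+GFP- T cells (naive CD4+ T cells) and CD45+CD4- cells. Tolerant spleens gave CD127hi Tregs, CD127-/lo Tregs, CD4+ T cells and CD45+CD4- cells, and the grafts gave graft Tregs. From lymph nodes came DLN/naive Tregs of naive mice and, from the graft-draining node (DLN) of tolerant mice, DLN/CD127hi and DLN/CD127-/lo Tregs. CD127 is the IL-7 receptor α chain. The CD45+CD4- cells are the leukocytes of the spleen left after CD4+ cells were depleted, so they hold the B cells, dendritic cells (DC) and macrophages that carry class II as a rule, together with CD8+ T cells. Libraries were made from pooled mice, the mice behind DLN/naive Tregs were female and all others male, so that sex cannot be told apart from the group in any comparison with DLN/naive Tregs, and nothing in the labels ties a replicate number to a mouse. By the study's numbers of mice, the tolerant groups drew on the same animals, and the naive mice were too few for the libraries of a naive group to be separate pools, so p-values measure the spread between these libraries, which may be technical. The 9 DLN libraries were sequenced on a MiSeq and the other 24 on a NextSeq 500, so for any difference between DLN and spleen the tissue and the sequencer cannot be told apart.

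A class II molecule is an αβ heterodimer that displays peptides from endocytosed proteins to CD4+ T cells. In mice of the H-2b haplotype, to which C57BL/6 belongs, the α chain H2-Aa pairs with the β chain H2-Ab1 to form I-A, whereas I-E is not made because its α gene is defective, and H2-Eb1 therefore encodes a β chain without its usual partner. New dimers bind the invariant chain Cd74, which blocks the groove and steers them to endosomes, where proteases trim it to the fragment CLIP. H2-DM then exchanges CLIP for peptide, and H2-O, which is best known from B cells, restrains H2-DM. Ciita (chromosome 16) is the coactivator on which transcription of these genes largely depends, and it is recruited by RFX on the X box and NF-Y on the Y box of their promoters. B cells, DC and macrophages make class II constitutively, whereas mouse T cells as a rule make little of it.

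Of the members, 8 lie in the class II region of chromosome 17, H2-Oa at chr17:34092340-34095234, H2-DMa at chr17:34119541-34139101, H2-DMb2 at chr17:34143307-34151555, H2-DMb1 at chr17:34153072-34160230, H2-Ob at chr17:34238903-34254414, H2-Ab1 at chr17:34257689-34269419, H2-Aa at chr17:34282744-34287823 and H2-Eb1 at chr17:34305867-34316674, with only H2-Aa on the minus strand (GENCODE vM21, GRCm38). RefSeq promoter windows (GRCm38.p6) were at hand for 7 members, with 8 entries in all. The 250 bases before each start site were searched for AAC followed after 25 to 30 bases by ATTGG. The last 5 letters are the core of the Y box read on the strand of the gene, AAC lies within the X box, and the spacing was chosen with these windows in view. The pair was found in 6 of the 7 members and in neither of the 2 entries for H2-DMa, and on either strand it was found in 3.07% of all 32851 promoter entries. Since the spacing was fitted to the members, the 2 shares cannot be compared. ATTGG, with or without AAC, was found in 33.8% of them. The stretches are shown for 4 members whose levels in Tregs differ, as given below, with AAC and ATTGG in capitals, read 5′ to 3′ on the gene's own strand.
H2-Aa (- strand, chr17:34287862-34287910): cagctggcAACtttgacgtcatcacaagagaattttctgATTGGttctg
H2-Eb1 (+ strand, chr17:34305770-34305817): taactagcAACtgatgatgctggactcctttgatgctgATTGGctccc
H2-DMb2 (+ strand, chr17:34145120-34145168): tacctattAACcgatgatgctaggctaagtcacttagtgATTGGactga
H2-Ob (+ strand, chr17:34238812-34238857): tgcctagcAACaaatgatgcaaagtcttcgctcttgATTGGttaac
ATTGG lay 48, 59, 90 and 57 bases before the RefSeq start in H2-Aa, H2-Eb1, H2-DMb2 and H2-Ob. A match of letters is a description and not a tested binding site. The matching stretches of H2-DMb1 and H2-Oa lay in or ran into a 5′ untranslated region of a GENCODE transcript and are not shown, and that of H2-DMb2 lies between annotated exons of the gene.

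Between 2550698 and 4615283 read pairs per library were assigned to genes in the spleen and graft libraries and between 844039 and 1935323 in the DLN libraries, so that 3 counts, the limit that a count of 0 allows, stood for 0.650 to 1.18 and 1.55 to 3.55 CPM (read counts scaled to the library total). CPM below are also scaled by TMM factors. Foxp3 was at 166 to 672 CPM in the 21 Treg libraries and at 0 to 8.20 CPM in the other 12, so no library went against its label as Treg or other cell. Il7r, which codes CD127, was at 1234, 1082 and 1198 CPM in the 3 SP/CD127hi libraries and 269.5, 303 and 359.7 CPM in the 3 SP/CD127-/lo libraries, without overlap. In DLN it was at 635, 476 and 678 CPM in the libraries labelled CD127hi and 265, 783.5 and 516 CPM in those labelled CD127-/lo. The DLN groups thus overlapped, with replicate 2 labelled CD127-/lo above all 3 labelled CD127hi, and Il7r RNA does not separate the CD127 labels in DLN. The sort itself was made on surface protein. The summed level of 7 T cell markers was 2989 to 13109 CPM in Treg libraries and 884 to 2692 CPM in CD45+CD4- cells, and that of 10 B cell markers was 4677 to 9928 CPM in CD45+CD4- cells. Called below means an adjusted p under 0.05 in the edgeR quasi-likelihood test over 25347 genes. In bulk libraries fewer cells that carry a transcript and less of it per cell cannot be told apart.

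CD45+CD4- cells of the spleen held all 10 members in every library, and these levels are the reference for the Tregs. Cd74 was the most abundant member per kilobase of exon, at 1503 ± 962 CPM per kb (mean ± SD, n = 3) in naive and 2068 ± 671 in tolerant mice. H2-Ab1 was at 355 ± 43.3 and 606 ± 103 CPM per kb and H2-Aa at 403 ± 128 and 589 ± 89.6, whereas the transactivator Ciita was the lowest at 24.9 ± 7.03 and 17.3 ± 4.19. On the CPM scale, H2-Ab1 was at 863, 1039 and 834 CPM in the 3 naive libraries and at 1829, 1542 and 1298 CPM in the 3 tolerant ones, so the groups did not overlap. H2-Eb1 was at 491, 482 and 538 CPM against 962, 852 and 640.4 CPM, again without overlap. Cd74 spread more widely within groups, at 1915, 1299 and 4354 CPM in naive and 3875, 4343 and 2200.3 CPM in tolerant libraries. None of the 10 members was called between tolerant and naive CD45+CD4- cells in edgeR (0.0355% of all genes were called), and none reached an unadjusted p under 0.05, as 4.46% of all genes did. The estimates were a log2 fold change of 0.77 for H2-Ab1 (SE 0.65), 0.70 for H2-Eb1 (SE 0.70) and -0.53 for Ciita (SE 1.07), each with an adjusted p of 1. With 3 libraries against 3, an exact two-sided permutation test of 1 gene cannot fall below 0.1.

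**Figure D1:**
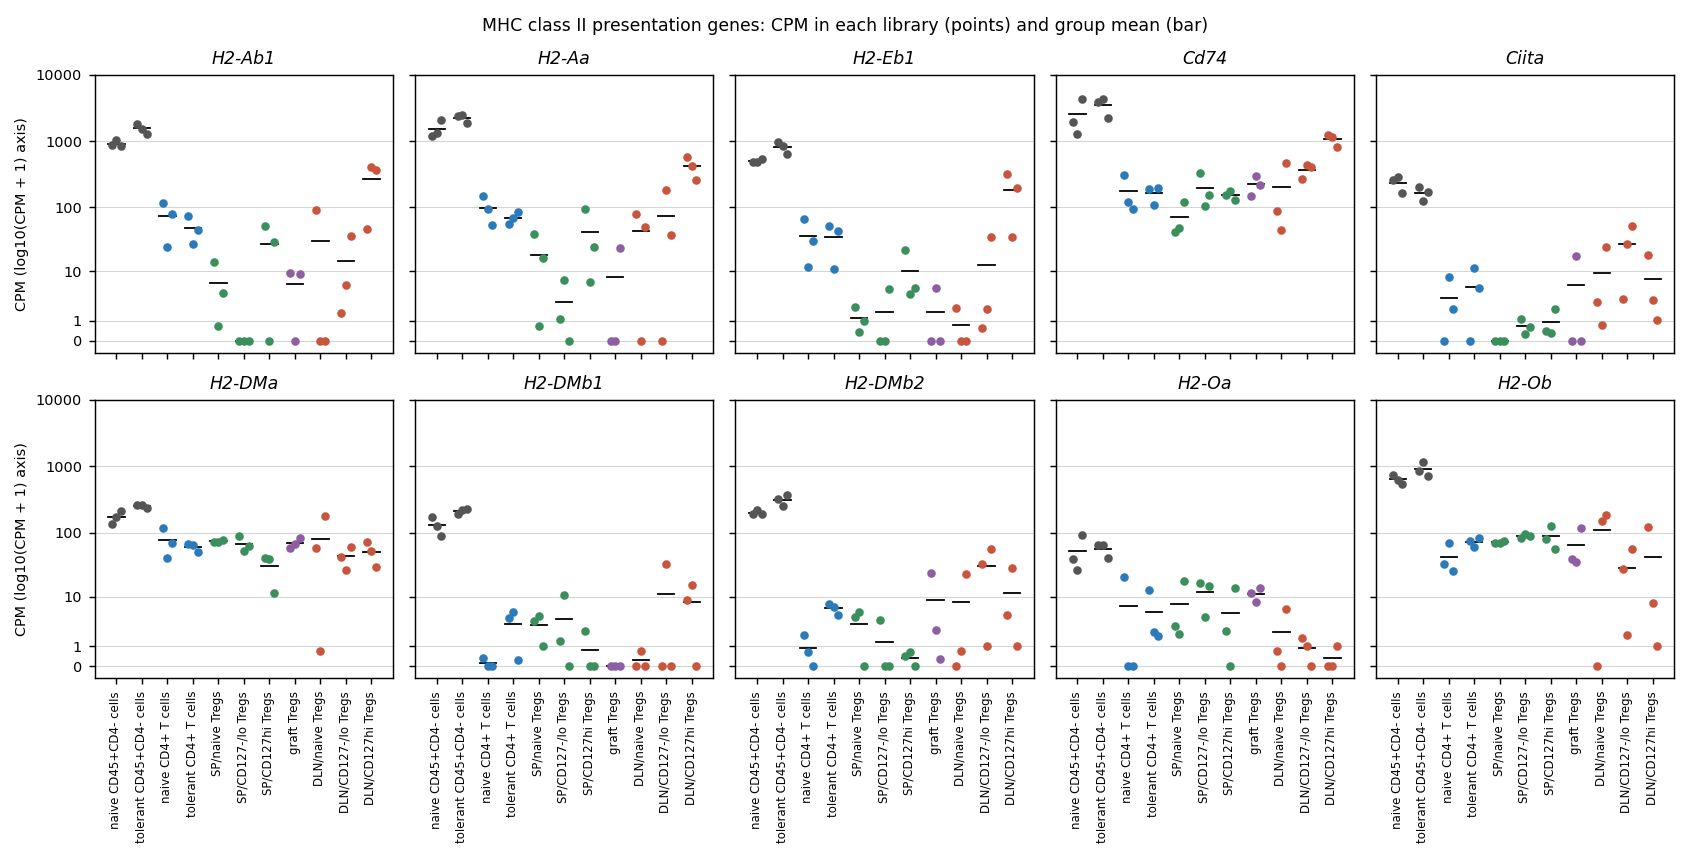
CPM of each of the 10 members in each library (points) on a log10(CPM + 1) axis, for the 11 sample groups on the horizontal axis, with a bar at each group mean. The 6 CD45+CD4- libraries stand above all T cell libraries for H2-Ab1, H2-Aa, H2-Eb1 and Cd74, and the DLN/CD127hi libraries come next for H2-Aa and Cd74 and overlap CD4+ T cell libraries for H2-Ab1 and H2-Eb1. By group mean, H2-DMa falls less from CD45+CD4- cells to T cells than the αβ chains do, except in DLN/CD127hi Tregs, where H2-Eb1 falls less.

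Tregs held far less class II transcript than CD45+CD4- cells, and the 3 class II chains and Cd74 were called lower in every Treg subset, except H2-Eb1 in DLN/CD127hi Tregs. Each subset was set against the CD45+CD4- cells of the same kind of mouse. Of the 10 members, the number called lower in edgeR was 8 in SP/naive Tregs (0.588% of all genes were called lower in that comparison), 8 in SP/CD127-/lo Tregs (1.11%), 9 in SP/CD127hi Tregs (0.734%) and 8 in graft Tregs (1.37%). In the lymph node it was 8 in DLN/naive Tregs (1.38%), 5 in DLN/CD127-/lo Tregs (1.27%) and 8 in DLN/CD127hi Tregs (1.78% of all genes were called in either direction). No member was called higher. The median log2 fold change of the 10 members was -5.64, -6.79, -5.78, -4.97, -4.63, -4.60 and -3.46 in this order of subsets, where the median over all genes tested ran from -0.11 to 0.48. The 5 tolerant subsets share the tolerant CD45+CD4- libraries, and the 2 naive subsets share the naive ones.

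The β chain H2-Ab1 was called lower in all 7 subsets. It was at 14, 0.677 and 4.29 CPM in the 3 SP/naive Treg libraries, 0.695% of its mean in naive CD45+CD4- cells (log2 fold change -7.15, SE 0.85, edgeR adjusted p = 4.59e-12). In SP/CD127-/lo Tregs no library held a count, which puts H2-Ab1 at least 1881-fold lower than in tolerant CD45+CD4- cells at a floor of 3 counts per library. SP/CD127hi Tregs were at 52.8, 0 and 29.5 CPM (1.76%), so 1 of the 3 libraries lacked the transcript that the other 2 held. Graft Tregs were at 9.48, 0 and 9.24 CPM (0.401%) and DLN/naive Tregs at 92.3, 0 and 0 CPM (3.37%), all of it from replicate 1. DLN/CD127-/lo Tregs were at 1.64, 5.97 and 36.8 CPM (0.951%). DLN/CD127hi Tregs stood highest among Tregs at 46.7, 403 and 365 CPM, 17.5% of the tolerant CD45+CD4- mean (log2 fold change -2.52, SE 0.69, edgeR adjusted p = 0.0231).

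The α chain H2-Aa, the partner of H2-Ab1 in I-A, was also called lower in all 7 subsets and showed the same order at its ends. Its group means in splenic and graft Tregs were 0.125% to 1.87% of the CD45+CD4- level, the lowest in SP/CD127-/lo Tregs at 1.13, 7.29 and 0 CPM and the highest in SP/CD127hi Tregs at 94.7, 6.73 and 24.3 CPM. Libraries of 1 group differed widely, since DLN/CD127-/lo Tregs held 0, 186 and 38.4 CPM and DLN/naive Tregs 80.2, 0 and 50.8 CPM. DLN/CD127hi Tregs held 585, 421 and 255 CPM, 18.8% of the CD45+CD4- mean (log2 fold change -2.41, SE 0.65, edgeR adjusted p = 0.0214). H2-Eb1, the unpaired β chain in this strain, was called lower in 6 subsets. In SP/naive Tregs it was at 2.20, 0.338 and 1.01 CPM (0.235% of the CD45+CD4- mean, log2 fold change -8.66, SE 1.0, edgeR adjusted p = 7.16e-13). In DLN/naive Tregs 3 counts in all were found, a 747-fold lower level with a 95% counting interval of 255 to 3623. In DLN/CD127hi Tregs H2-Eb1 was at 323, 35.4 and 198 CPM, 22.7% of the CD45+CD4- mean, and the difference was not called (log2 fold change -2.14, SE 0.73, edgeR adjusted p = 0.114). Between DLN/CD127hi Tregs and CD45+CD4- cells the calls of H2-Ab1, H2-Aa and Cd74 were lost with edgeR's likelihood ratio test, with DESeq2 and with a stricter filter (10 counts in at least 3 libraries), whereas in graft Tregs, in both naive subsets and in both SP subsets of tolerant mice the calls of these 3 genes and of H2-Eb1 held under every alternative tried. In DLN/CD127-/lo Tregs that of H2-Aa was lost with the stricter filter (adjusted p = 0.0512), and those of H2-Ab1, Cd74 and H2-Eb1 held.

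The invariant chain Cd74 differed from the αβ chains in that every Treg library held it. It was at 42.4, 49.1 and 121 CPM in SP/naive Tregs (2.81% of the CD45+CD4- mean), 332, 104 and 153 CPM in SP/CD127-/lo Tregs (5.64%) and 153, 178 and 127 CPM in SP/CD127hi Tregs (4.40%). Graft Tregs held 150.3, 300.5 and 215 CPM (6.39%). In DLN the levels were 87.3, 45.5 and 474 CPM in naive Tregs, 269.8, 438 and 411 CPM in CD127-/lo Tregs and 1213, 1150.3 and 818 CPM in CD127hi Tregs, the last being 30.5% of the CD45+CD4- mean. Cd74 was called lower in all 7 subsets, with log2 fold changes from -5.15 in SP/naive Tregs (SE 0.45, edgeR adjusted p = 9.50e-21) to -1.71 in DLN/CD127hi Tregs (SE 0.39, edgeR adjusted p = 0.00281). Per kilobase, the level of Cd74 over the summed level of H2-Ab1, H2-Aa and H2-Eb1 was 0.772 to 2.25 in the 6 CD45+CD4- libraries and 2.13, 2.39 and 1.57 in DLN/CD127hi Tregs, which overlaps them. In SP/CD127-/lo Tregs this ratio was 664, 32.1 and 35.5 and in graft Tregs 24.3, 66.7 and 13, so every library of these groups held more Cd74 per αβ transcript than any CD45+CD4- library, as did those of DLN/CD127-/lo Tregs at 175, 4.98 and 5.76. This was not so in the other Treg groups, where the ratio was 1.501, 47.5 and 11.1 in SP/naive and 1.60, 27.7 and 3.69 in SP/CD127hi Tregs. In DLN/naive Tregs it was 0.894 and 21.1 in replicates 1 and 3, and replicate 2 held no αβ transcript. The αβ sums under those ratios were small, at 1.13, 7.29 and 4.98 CPM in SP/CD127-/lo and 9.48, 5.21 and 33.1 CPM in graft Tregs, and the ratios are given without a test.

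The transactivator Ciita was at 260.0, 291 and 162 CPM in naive and 203, 123 and 168 CPM in tolerant CD45+CD4- cells and at 0 in all 3 SP/naive Treg libraries, at least 274-fold lower. In SP/CD127-/lo and SP/CD127hi Tregs it stayed at 0.252 to 2.03 CPM. In graft Tregs it was at 0, 17.8 and 0 CPM, all of it from replicate 2. In DLN it was at 2.84, 0.701 and 24.8 CPM in naive, 3.27, 27.9 and 51.5 CPM in CD127-/lo and 18.5, 3.15 and 1.04 CPM in CD127hi Tregs. DLN/CD127hi Tregs, which held the most αβ transcript, thus did not hold the most Ciita, and the groups overlapped. Ciita was called lower in every subset but DLN/CD127-/lo Tregs (log2 fold change -2.58, SE 1.14, edgeR adjusted p = 0.241). The call in graft Tregs was lost without graft replicate 1 or 3, that in DLN/naive Tregs without naive CD45+CD4- replicate 2 or DLN/naive replicate 1 or 2, and that in DLN/CD127hi Tregs without tolerant CD45+CD4- replicate 1 or 3 or DLN/CD127hi replicate 2 or 3. The stricter filter also ended the calls in these 3 subsets, the compared libraries alone that in graft Tregs, and the likelihood ratio test and DESeq2 that in DLN/CD127hi Tregs (adjusted p = 0.0599 and 0.0715).

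H2-DMa, the α chain of the peptide exchanger H2-DM, was the member nearest to its CD45+CD4- level in every Treg subset but DLN/CD127hi. SP/naive Tregs held 73, 71.4 and 77 CPM against 136, 171 and 217 CPM in naive CD45+CD4- cells, so the mean was 42.3% of theirs and the difference was not called (log2 fold change -1.24, SE 0.75, edgeR adjusted p = 0.707). Graft Tregs held 59, 67.2 and 83.1 CPM and SP/CD127-/lo Tregs 88.4, 52.3 and 63.9 CPM, where tolerant CD45+CD4- cells held 263, 262 and 238 CPM. H2-DMa was called lower only in SP/CD127hi Tregs, at 41.1, 39.8 and 11.6 CPM (log2 fold change -3.04, SE 0.80, edgeR adjusted p = 0.0176), and that call was lost without any one of the 3 SP/CD127hi libraries. The exons of H2-DMa share 360 bp with the antisense gene Brd2, the libraries do not keep strand, and reads on several genes were not counted. The β chains of H2-DM went another way. H2-DMb1 was at 88.9 to 229 CPM and H2-DMb2 at 193 to 372 CPM in CD45+CD4- cells, and their group means in Tregs were 0 to 5.24% and 0.109 to 9.64% of those levels. Each was called lower in 6 of 7 subsets, the exception being DLN/CD127-/lo Tregs. Among these calls, that of H2-DMb1 was lost without naive CD45+CD4- replicate 1 or any SP/naive library in SP/naive Tregs, without replicate 1 or 3 in SP/CD127-/lo Tregs, and without any tolerant CD45+CD4- library or DLN/CD127hi replicate 1 or 3 in DLN/CD127hi Tregs, and that of H2-DMb2 was lost in DLN/naive Tregs without replicate 1 or 2. The stricter filter ended the calls of H2-DMb1 in SP/naive, SP/CD127-/lo and DLN/CD127hi Tregs and of H2-DMb2 in SP/naive, DLN/naive and DLN/CD127hi Tregs, and that of H2-DMb1 in DLN/CD127hi Tregs was also lost with the likelihood ratio test, DESeq2 and RLE scaling. H2-DMb1 and H2-DMb2 are near-identical paralogs and only uniquely mapped reads were counted, so how reads divided between them is uncertain.

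Of the H2-O chains, H2-Ob was held by most Treg libraries yet called lower in all 7 subsets. It was at 70.8, 69.4 and 75.3 CPM in SP/naive Tregs (11.2% of 640.1 CPM, log2 fold change -3.16, SE 0.68, edgeR adjusted p = 0.00108), 84.2, 95.6 and 88.8 CPM in SP/CD127-/lo Tregs and 81.8, 129 and 56.7 CPM in SP/CD127hi Tregs. In DLN/CD127hi Tregs it was at 121, 7.87 and 1.04 CPM, 4.75% of the CD45+CD4- mean (log2 fold change -4.40, SE 0.72, edgeR adjusted p = 2.15e-06). Replicates 2 and 3 of this group thus held little H2-Ob at αβ sums of 859.8 and 818 CPM, and replicate 1 held more at 955 CPM. The calls of H2-Ob in SP/naive and DLN/naive Tregs were lost with the likelihood ratio test, DESeq2 and the stricter filter (adjusted p = 0.0616, 0.062 and 0.134 in SP/naive Tregs), that in DLN/naive Tregs also with the compared libraries alone and without DLN/naive replicate 1, and that in SP/CD127hi Tregs with the stricter filter. H2-Oa was at 40.3, 27.1 and 93.4 CPM in naive and 65.2, 65.1 and 40.7 CPM in tolerant CD45+CD4- cells. Its means in splenic and graft Tregs were 9.49 to 21.3% of those and were not called. In DLN/CD127hi Tregs 1 count was found, 189.5-fold lower with a 95% counting interval of 33.9 to 7498, and its call (edgeR adjusted p = 0.04) was lost with the stricter filter, the replicate block and without any one library of the comparison other than DLN/CD127hi replicate 3. Of the exons of H2-Oa, 321 bp are shared with the antisense gene BC051537, and reads on several genes were not counted.

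**Figure D2:**
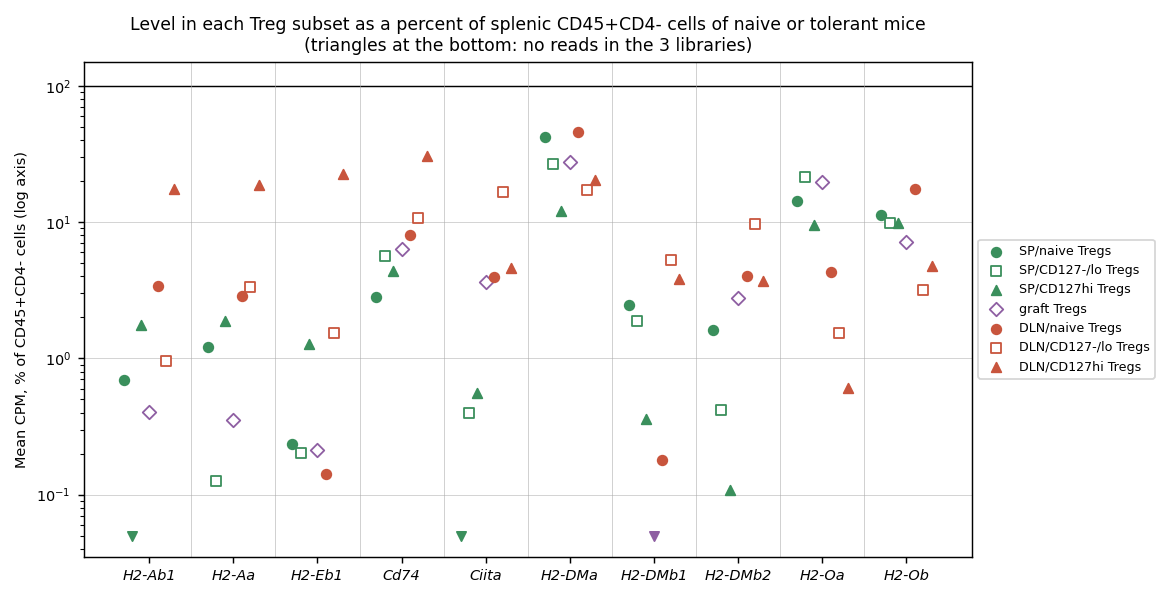
Mean level of each of the 10 members in each of the 7 Treg groups (points) as a percent of its mean in splenic CD45+CD4- cells of naive mice for naive Tregs and of tolerant mice for the others, on a log axis, with a line at equal level and downward triangles where none of the 3 libraries held a count. H2-Ab1, H2-Aa and H2-Eb1 stand at 17.5% to 22.7% in DLN/CD127hi Tregs and at no more than 3.37% in the other Treg groups, while H2-DMa stands at 12.1% to 45.5% in all 7.

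Ordered by group mean, the CD45+CD4- groups came first for all 10 members. For H2-Ab1, H2-Aa, H2-Eb1 and Cd74 the next group was DLN/CD127hi Tregs, all of whose libraries lay below every CD45+CD4- library. The libraries of DLN/CD127hi Tregs in turn lay above those of the group next in order for H2-Aa and Cd74, but not for H2-Ab1 and H2-Eb1. Among the other T cell groups, neighbours in the order were apart only for Cd74, in SP/CD127hi over SP/naive Tregs. All other neighbours among T cell groups overlapped or, for Ciita in SP/CD127-/lo and SP/naive Tregs, lay within the limit that a count of 0 allows, so that their order lies within the spread of the libraries. For H2-DMa the naive CD45+CD4- cells themselves overlapped the next group, DLN/naive Tregs.

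Foxp3- CD4+ T cells, the other T cells of the study, held the αβ chains and Cd74 in each of their 6 libraries. H2-Ab1 was at 117, 25 and 80.7 CPM in naive CD4+ T cells and 74.3, 27.2 and 44.5 CPM in tolerant ones, 8.13% and 3.13% of the CD45+CD4- means. H2-Eb1 was at 66.9, 11.7 and 30.2 and 52.4, 11 and 43.5 CPM, and Cd74 at 311, 122 and 96 and 187, 107 and 199 CPM. The sum of H2-Ab1, H2-Aa and H2-Eb1 was 332, 130.2 and 164 CPM in naive and 182, 106 and 174 CPM in tolerant CD4+ T cells, beside 10 B cell markers at 144, 132 and 31.3 and 7.75, 31.9 and 34.2 CPM and 10 monocyte and macrophage markers at 0, 5.38 and 2.74 and 17.8, 30.1 and 15.4 CPM. The 8 DC markers summed to 29.5, 68.4 and 18.8 and 22.6, 56.8 and 83.7 CPM. These DC sums were on average 33.3% and 26.5% of the CD45+CD4- means. The B cell sums were 1.63% and 0.275%, and the monocyte and macrophage sums 0.914% and 3.67%. The part of such cells in these levels was not tested. Against CD45+CD4- cells, 8 of 10 members were called lower in naive CD4+ T cells (0.659% of all genes were called lower) and 8 in tolerant ones (0.777%), and H2-DMa and H2-Oa were the members not called in either. The calls of H2-Ab1 and H2-Aa in naive CD4+ T cells were lost with the likelihood ratio test, DESeq2 and the stricter filter, that of H2-Eb1 with DESeq2 and the stricter filter, and those of Ciita and H2-Ob with the stricter filter. In tolerant CD4+ T cells the stricter filter ended those of Ciita, H2-DMb1 and H2-DMb2, and those of Ciita (without replicate 1 or 3) and H2-DMb1 (without replicate 3) also rested on single libraries. Between tolerant and naive CD4+ T cells no member was called in edgeR (0.107% of all genes), and 2 had an unadjusted p under 0.05 (7.01% of all genes).

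Against naive CD4+ T cells, 2 or 3 of the αβ chains were called lower in 3 of the 4 splenic and graft Treg subsets, whereas Cd74 was called in none. SP/naive Tregs had 2 members called lower (0.107% of all genes), H2-Ab1 (log2 fold change -3.53, SE 0.73, edgeR adjusted p = 0.00199) and H2-Eb1 (log2 fold change -4.86, SE 0.86, edgeR adjusted p = 6.83e-05). SP/CD127-/lo Tregs had 3 (0.193% of all genes), H2-Ab1 at least 89.7-fold lower, H2-Aa (log2 fold change -5.08, SE 0.75, edgeR adjusted p = 1.44e-07) and H2-Eb1 (log2 fold change -4.44, SE 0.84, edgeR adjusted p = 2.20e-04). Graft Tregs had the same 3 genes (0.260% of all genes), with log2 fold changes of -3.56, -3.63 and -4.34 (edgeR adjusted p = 0.00101, 2.58e-04 and 2.86e-04). In SP/CD127hi Tregs no member was called (0.422% of all genes were called in either direction), and 2 had an unadjusted p under 0.05 in edgeR (8.75% of all genes). The log2 fold change of Cd74 was -1.31 in SP/naive, 0.15 in SP/CD127-/lo, -0.21 in SP/CD127hi and 0.33 in graft Tregs. The stricter filter, or a fit of the compared libraries alone, ended these calls apart from H2-Ab1 in SP/CD127-/lo Tregs, which held under every alternative, and H2-Aa there, which the stricter filter alone ended. The 4 comparisons share the naive CD4+ T cell libraries. The B cell marker sum, given above for them, was 102, 27.7 and 73.2 CPM in SP/naive, 44.9, 51.1 and 66 CPM in SP/CD127-/lo and 0.542, 7.13 and 167 CPM in graft Tregs. The DC marker sum was 19.3, 38.6 and 29.5 CPM in SP/naive, 2.83, 1.51 and 0.586 CPM in SP/CD127-/lo and 20.6, 23.9 and 26.8 CPM in graft Tregs. It lay below all naive CD4+ T cell libraries in SP/CD127-/lo Tregs and overlapped them in SP/naive and graft Tregs. The part of such cells in these differences was not tested.

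Within splenic Tregs, the I-A chains were higher in CD127hi than in CD127-/lo Tregs. The summed level of H2-Ab1, H2-Aa and H2-Eb1 was 169, 10.7 and 59.1 CPM in the 3 SP/CD127hi libraries and 1.13, 7.29 and 4.98 CPM in the 3 SP/CD127-/lo libraries, so SP/CD127hi libraries held the higher sums without overlap. Of 10 members, 2 were called higher (0.0592% of all genes). H2-Ab1 was at least 33.2-fold higher (edgeR adjusted p = 1.48e-09), although replicate 2 of SP/CD127hi Tregs lacked it as the SP/CD127-/lo libraries did. H2-Aa was 14.9-fold higher (log2 fold change 3.86, SE 0.72, edgeR adjusted p = 7.83e-04), and its groups overlapped. Cd74 was at 153 CPM against 196 CPM and was not called. Both calls were lost with the stricter filter and with a fit of the compared libraries alone, and that of H2-Aa also with the likelihood ratio test, DESeq2 and the replicate block (adjusted p = 0.339, 0.341 and 0.124). For H2-Aa the fitted log2 fold change was 2.43 without SP/CD127hi replicate 1 and 6.10 without SP/CD127-/lo replicate 2. Of the 10 B cell markers, Ms4a1 and Cr2 were also called higher in this comparison (0.0592% of all genes). The sums of the 10 overlapped, at 131, 10.4 and 124 CPM in SP/CD127hi and 44.9, 51.1 and 66 CPM in SP/CD127-/lo Tregs. Replicate 2 of SP/CD127hi Tregs was thus the lowest of these libraries. The 8 DC markers summed to 21.4, 55.1 and 68 CPM against 2.83, 1.51 and 0.586 CPM, with 7 of 8 at 0 in all SP/CD127-/lo libraries. The part of such cells in the difference was not tested.

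Against SP/naive Tregs, SP/CD127hi Tregs had no member called (0.0197% of all genes were called), and 5 members had an unadjusted p under 0.05 in edgeR (5.09% of all genes). H2-Eb1 was at 21.8, 3.98 and 5.21 CPM against 2.20, 0.338 and 1.01 CPM (log2 fold change 3.07, SE 0.82, edgeR adjusted p = 0.308), and Cd74 was at 153, 178 and 127 CPM against 42.4, 49.1 and 121 CPM (log2 fold change 1.10, SE 0.38, edgeR adjusted p = 0.628). SP/CD127-/lo Tregs had 1 member called lower than in SP/naive Tregs (0.0434% of all genes), H2-Ab1, at least 7.66-fold (edgeR adjusted p = 2.38e-05). It was at 0 in every library against 14, 0.677 and 4.29 CPM, so most of the SP/naive signal came from replicate 1, and the 2 counts of replicate 2 lie under the limit that a count of 0 allows. The stricter filter, a fit of the compared libraries alone and the replicate number as a block each ended this call. The DC markers summed to 2.83, 1.51 and 0.586 CPM in SP/CD127-/lo and 19.3, 38.6 and 29.5 CPM in SP/naive Tregs, without overlap. The B cell sums and the monocyte and macrophage sums of these groups overlapped. The part of such cells in the difference of H2-Ab1 was not tested.

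Graft Tregs held more Cd74 than SP/naive Tregs, whereas none of the chains that it escorts was called. Cd74 was at 150.3, 300.5 and 215 CPM against 42.4, 49.1 and 121 CPM, with no overlap, and was 3.13-fold higher (log2 fold change 1.64, SE 0.39, edgeR adjusted p = 0.0363). It was 1 of 2 members called higher (0.0750% of all genes). The other, Ciita, was at 0, 17.8 and 0 CPM against 0 in all SP/naive libraries, at least 6.86-fold higher (edgeR adjusted p = 0.0406), all of it from graft replicate 2. H2-Ab1 was at 9.48, 0 and 9.24 CPM and H2-Aa at 0, 0 and 23.8 CPM in graft Tregs, and neither was called. Both calls were lost with the likelihood ratio test, the stricter filter, a fit of the compared libraries alone and the replicate block. Both were also lost without graft replicate 2 or without SP/naive replicate 1 or 2, that of Cd74 also with DESeq2 and that of Ciita also without SP/naive replicate 3. The kidney tubule gene Kap was at 114, 887 and 13.4 CPM in graft Tregs, highest in the same replicate 2, and the 6 kidney tubule markers summed to 117, 890.1 and 16.1 CPM there and to 19.9 CPM at most in any library of another group. Their part in the 2 differences was not tested. Against graft Tregs, SP/CD127hi Tregs had no member called (0.103% of all genes), with 6 at an unadjusted p under 0.05 in edgeR (8.74% of all genes). SP/CD127-/lo Tregs had 1 called lower (0.0552% of all genes), H2-Ab1, at least 7.54-fold (edgeR adjusted p = 3.16e-05), although graft replicate 2 also held none. That call was lost with the stricter filter, a fit of the compared libraries alone and the replicate block. The DC markers summed to 2.83, 1.51 and 0.586 CPM in SP/CD127-/lo and 20.6, 23.9 and 26.8 CPM in graft Tregs, without overlap. The B cell sums and the monocyte and macrophage sums of these groups overlapped. The part of such cells in this difference was not tested.

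In the draining lymph node, CD127hi Tregs held more of all 3 class II chains and of Cd74 than either other Treg subset. The sum of H2-Ab1, H2-Aa and H2-Eb1 was 955, 859.8 and 818 CPM in the 3 DLN/CD127hi libraries, or 20.7, 18.6 and 17.7% of the tolerant CD45+CD4- mean. It was 2.18, 194 and 110.4 CPM in DLN/CD127-/lo Tregs and 175, 0 and 50.8 CPM in DLN/naive Tregs. Each DLN/CD127hi library lay above all 18 other Treg libraries, which ran from 0 to 194 CPM.

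Against DLN/naive Tregs, 4 of 10 members were called higher (0.548% of all genes) and none lower. Cd74 was at 1213, 1150.3 and 818 CPM against 87.3, 45.5 and 474 CPM, 5.24-fold higher (log2 fold change 2.39, SE 0.40, edgeR adjusted p = 1.39e-05). H2-Aa was at 585, 421 and 255 CPM against 80.2, 0 and 50.8 CPM, 9.62-fold higher (log2 fold change 3.27, SE 0.68, edgeR adjusted p = 0.00131). H2-Ab1 was at 46.7, 403 and 365 CPM against 92.3, 0 and 0 CPM, 8.83-fold higher (log2 fold change 3.14, SE 0.71, edgeR adjusted p = 0.00484). The groups did not overlap for Cd74 and H2-Aa, but for H2-Ab1 the lowest DLN/CD127hi library lay under DLN/naive replicate 1. H2-Eb1 rested on 568 counts against 3, a ratio of 258 with a 95% counting interval of 87.9 to 1256 (edgeR adjusted p = 1.67e-09). The log2 fold change of Cd74 was 4.07 without DLN/naive replicate 3 and that of H2-Aa 4.11 without DLN/naive replicate 1, while without the latter H2-Ab1 and H2-Eb1 had no count in DLN/naive Tregs. The calls of Cd74 and H2-Eb1 held under every alternative tried, those of H2-Aa and H2-Ab1 were lost with the likelihood ratio test, DESeq2 and the stricter filter, and that of H2-Ab1 also with a fit of the compared libraries alone and the replicate block.

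Against the libraries labelled DLN/CD127-/lo, also from tolerant mice, the same 4 genes were called higher (0.221% of all genes), and for none of the 4 did the groups overlap. H2-Ab1 was 18.4-fold higher (log2 fold change 4.21, SE 0.75, edgeR adjusted p = 1.15e-04) and H2-Eb1 14.8-fold higher (log2 fold change 3.89, SE 0.80, edgeR adjusted p = 0.00216). H2-Aa was 5.62-fold higher (log2 fold change 2.50, SE 0.66, edgeR adjusted p = 0.0445) and Cd74 2.84-fold higher (log2 fold change 1.51, SE 0.39, edgeR adjusted p = 0.0355). Most of the DLN/CD127-/lo signal of H2-Ab1 (1.64, 5.97 and 36.8 CPM) and of H2-Eb1 (0.545, 1.99 and 35.2 CPM) was in replicate 3, without which the log2 fold changes were 6.21 and 7.33. That of H2-Eb1 was 3.22 without DLN/CD127hi replicate 1. For H2-Aa the log2 fold change was 4.48 without DLN/CD127-/lo replicate 2 and 1.89 without replicate 1. Without DLN/CD127-/lo replicate 2, the library highest in Il7r, all 4 calls held, with log2 fold changes of 3.85 for H2-Ab1, 3.40 for H2-Eb1 and 1.64 for Cd74. Without DLN/CD127hi replicate 2, the lowest of its group in Il7r, they held at 3.80 for H2-Ab1, 4.46 for H2-Eb1, 2.49 for H2-Aa and 1.48 for Cd74. All 4 calls were lost with the stricter filter, a fit of the compared libraries alone and the replicate block, and H2-Ab1, H2-Aa and Cd74 also with the likelihood ratio test and DESeq2. The call of Cd74 was lost as well without DLN/CD127-/lo replicate 1. Both comparisons use the same DLN/CD127hi libraries. Ciita, the H2-DM chains and the H2-O chains were not called in either. Between DLN/CD127-/lo and DLN/naive Tregs 1 member was called (0.241% of all genes were called higher), H2-Eb1, at 0.545, 1.99 and 35.2 CPM against 2.13, 0 and 0 CPM. Its ratio rested on 46 counts against 3 and was 16.8 (95% counting interval 5.40 to 84.4, edgeR adjusted p = 0.0234). That call was lost under every alternative but another scaling and no filter, and without DLN/naive replicate 2 or 3 or DLN/CD127-/lo replicate 3.

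The gap between CD127hi and CD127-/lo Tregs was not shown to differ between DLN and spleen. In the test of the difference between both gaps no member was called in edgeR (0.118% of all genes), and 2 had an unadjusted p under 0.05 (7.82% of all genes). With 1 library left out the count was 1 or 2 without any one of the DLN libraries or SP/CD127hi replicate 2 or 3, and 0 otherwise. The estimate for Cd74 was 1.87 (SE 0.54, edgeR adjusted p = 0.154), where a positive value is a larger gap in DLN, and that for H2-Ab1 was -5.12 (SE 1.40, edgeR adjusted p = 0.102). In SP/CD127-/lo Tregs, which enter this estimate, H2-Ab1 had no count.

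The makeup of the class II transcripts in DLN/CD127hi Tregs also varied by library. Per kilobase, H2-Ab1, H2-Aa and H2-Eb1 took 5.38%, 45.5% and 49.1% of their sum in replicate 1, 54.9%, 38.8% and 6.37% in replicate 2, and 45.7%, 21.6% and 32.7% in replicate 3. In the 6 CD45+CD4- libraries H2-Ab1 took 28.2 to 40.4% and H2-Eb1 24.1 to 28.1%, a far narrower spread. The H2-DM and H2-O chains together took 4.61, 4.22 and 1.27% of the per-kilobase sum of all 10 members in DLN/CD127hi Tregs and 9.48 to 18% in CD45+CD4- cells. In SP/naive Tregs, where αβ transcripts were scarce, they took 49.5, 57.9 and 38.6%.

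**Figure D3:**
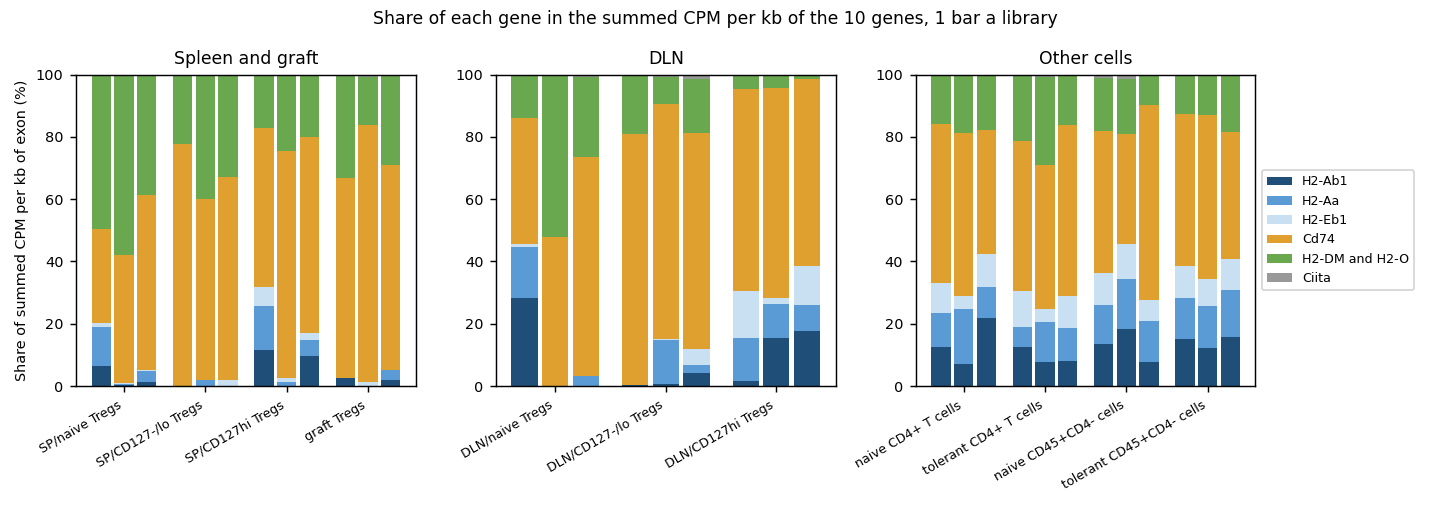
Share, in percent, of H2-Ab1, H2-Aa, H2-Eb1, Cd74, Ciita and the summed H2-DM and H2-O chains in the summed CPM per kb of the 10 members, with 1 stacked bar a library, 3 bars a group and panels for spleen and graft Tregs, DLN Tregs and other cells. The αβ chains and Cd74 fill most of each bar in CD45+CD4- cells and DLN/CD127hi Tregs, where the H2-DM and H2-O chains take 1.27% to 18%, and these chains take 38.6% to 57.9% in SP/naive Tregs.

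In DLN the B cell marker sums were higher in CD127hi than in naive Tregs without overlap, but they overlapped those of CD127-/lo Tregs. The 10 B cell markers summed to 809, 744 and 274 CPM in DLN/CD127hi Tregs. They summed to 167, 448 and 158 CPM in the CD127-/lo subset and 80.2, 14 and 80.6 CPM in DLN/naive Tregs and to 4677 to 9928 CPM in CD45+CD4- cells. Of these markers, 6 were called higher in DLN/CD127hi than in DLN/naive Tregs, namely Cd79b, Ms4a1, Ebf1, Cd22, Blk and Cr2 (0.548% of all genes were called higher), and 1 (Blk, log2 fold change 4.72, SE 1.23, edgeR adjusted p = 0.0393) was higher than in DLN/CD127-/lo Tregs (0.221% of all genes). The defining marker Cd79a was at 44.8, 42.5 and 0 CPM in the 3 DLN/CD127hi libraries. The 10 monocyte and macrophage markers summed to 604, 909 and 777 CPM in the CD127hi subset of DLN, 123, 754 and 102 CPM in the CD127-/lo subset and 346, 4.20 and 429 CPM in DLN/naive Tregs. Most of this was Lyz2, at 535, 756 and 716 CPM in DLN/CD127hi Tregs, and none of the 10 was called between DLN subsets in edgeR. The 8 DC markers had sums of 128, 51.2 and 8.29 CPM in the CD127hi subset of DLN, 22.9, 29.9 and 2.45 CPM in the CD127-/lo subset, 13.5, 4.20 and 9.92 CPM in DLN/naive Tregs and 111 to 229.8 CPM in CD45+CD4- cells. As percents of the tolerant CD45+CD4- means, DLN/CD127hi Tregs held 6.81% of the B cell sum, 30.6% of the DC sum and 133% of the monocyte and macrophage sum, beside 17.5% of H2-Ab1, 18.8% of H2-Aa and 22.7% of H2-Eb1. The 4 CD8 T and NK cell markers summed to 192, 2.36 and 120.3 CPM. Foxp3 was at 246, 272 and 259 CPM in the same 3 libraries. What part other cells had in the class II transcripts of DLN/CD127hi Tregs was not tested.

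**Figure D4:**
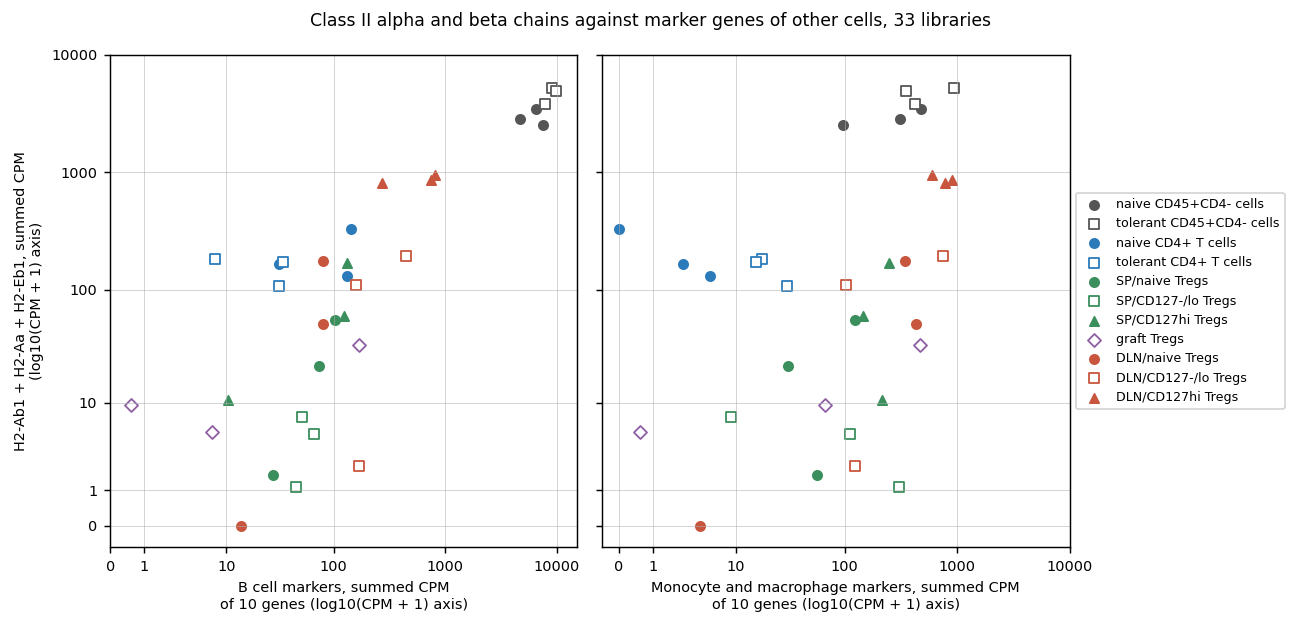
Summed level of H2-Ab1, H2-Aa and H2-Eb1 in each library (vertical axis) against the summed level of the 10 B cell markers (left) and of the 10 monocyte and macrophage markers (right), all in CPM on log10(CPM + 1) axes, with 1 point a library and symbols for the 11 groups. The 3 DLN/CD127hi libraries lie between the other T cell libraries and the CD45+CD4- libraries on the class II axis. On the monocyte and macrophage axis they lie within the range of CD45+CD4- libraries, as do libraries of other Treg groups, among them all 3 of SP/CD127hi and of DLN/CD127-/lo Tregs.

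Other genes of the class II pathway were less uniform. From a list of 10, 8 were matched and tested, H2-Eb2, the lysosomal proteases Ctss, Ctsl, Ctsb, Ctsh and Lgmn, and the ubiquitin ligases March1 and March8, the first of which lowers surface class II. H2-Eb2, Ctsh and March1 were called lower than in CD45+CD4- cells in the 4 SP and graft subsets and in DLN/naive Tregs, which is 3 of 8 with none higher (0.588 to 1.38% of all genes were called lower in the comparisons with CD45+CD4- cells). DLN/CD127-/lo Tregs had 2 lower (Ctsh and March1) and DLN/CD127hi Tregs 1 (March1). Ctss, the protease that trims Cd74 in B cells and DC, was called in no comparison with CD45+CD4- cells, and its Treg group means were 57.6 to 150.3% of theirs. Ctsh was also called between Treg subsets. It was at 102, 41.7 and 4.15 CPM in DLN/CD127hi and 0 in all DLN/naive libraries (edgeR adjusted p = 4.31e-05), and it was higher in SP/CD127hi than in SP/CD127-/lo Tregs (log2 fold change 5.13, SE 1.19, edgeR adjusted p = 0.032).

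Of 10 transcription factors that act on class II promoters or on Ciita, Spib, a factor of B cells and plasmacytoid DC, was called lower in all 7 Treg subsets and in both CD4+ T cell groups. Rfx5, Rfxap, Rfxank, Nfya, Nfyb and Nfyc, the RFX and NF-Y subunits that bind the boxes described above, were called in none of these 9 comparisons. Creb1 was lower in DLN/CD127-/lo Tregs. Genes of class I presentation were called higher or not at all, where 0.312 to 1.27% of all genes were called higher. Of 7 such genes, B2m, the light chain of class I, was called higher than in CD45+CD4- cells in all 9 comparisons. H2-K1, a class I heavy chain, was higher in SP/CD127hi and graft Tregs, Nlrc5, the class I transactivator related to Ciita, was higher in SP/CD127hi, graft and DLN/CD127hi Tregs, and none of the 7 was lower in any.

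The genes whose pattern across libraries was most like that of H2-Ab1, H2-Aa, H2-Eb1 and Cd74 were sought by the Pearson correlation of log2 CPM with the mean log2 CPM of these 4, among genes at 5 CPM or more on average. Over all 33 libraries the 10 highest of 10026 genes were Iglc3 (0.912), Iglj3 (0.888), Blk (0.864), Pld4 (0.864), Fgd2 (0.860), Ly6c2 (0.856), Grk3 (0.854), Ctsh (0.853), Iglc2 (0.845) and Ebf1 (0.843). Iglc3, Iglj3 and Iglc2 are segments of the immunoglobulin λ light chain, and Blk and Ebf1 are among the B cell markers counted above. Over the 21 Treg libraries alone the 10 highest of 9807 were Iglc2 (0.840), Blk (0.823), Iglc3 (0.822), Mef2c (0.780), Ebf1 (0.763), Iglv2 (0.746), Mmp23 (0.741), Flt3 (0.734), Pld4 (0.722) and Ctsh (0.719). Flt3 is among the DC markers counted above, and Ctsh among the other genes of the class II pathway. Iglc2 had a mean of 623 CPM in DLN/CD127hi Tregs (283 to 1265), 46.9 CPM in DLN/naive, 13.4 CPM in DLN/CD127-/lo and 0 in graft Tregs. Among the members, the correlation over Treg libraries was 0.890 for H2-Ab1, 0.898 for H2-Aa, 0.865 for H2-Eb1 and 0.664 for Cd74, which are part of the mean, but 0.365 for Ciita, 0.120 for H2-DMa, 0.265 for H2-DMb1, 0.120 for H2-DMb2, -0.455 for H2-Oa and -0.469 for H2-Ob. These correlations describe libraries that differ in tissue, sequencer and depth and carry no test.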

How the data were processed

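The authors sorted cells by flow cytometry, made cDNA with the SMART-Seq v4 kit and Nextera XT libraries, and sequenced paired ends. Per the labels and the processing notes, reads were trimmed with Trim Galore, checked with FastQC and aligned to mm10 with STAR, whose versions are not given in the sources used here. The deposited files hold raw counts of read pairs per Ensembl gene in the layout of STAR's gene counts, where the study's methods name HTSeq. The column that ignores strand was used, since the kit does not mark strand, and only uniquely mapped reads were counted. Reads outside genes, on several genes or at several sites were left out of library totals. No column held values of other samples.

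From these counts, 33 libraries were fitted in 1 model with 1 mean per group in edgeR 4.0.16 (R 4.3.3, limma 3.58.1), with TMM factors, for 25347 genes at 1 CPM or more in at least 1 library. Each of 24 comparisons and 1 difference between gaps was tested with the quasi-likelihood test, and p-values were adjusted by Benjamini-Hochberg over all genes. Folds are ratios of group means in TMM-scaled CPM. Where a group held no count, the fold is a bound at 3 counts per library, and where it held 1 to 3 counts, a ratio with an exact 95% interval that covers counting error only. The same limit applies to the floors given as CPM. Values per kb divide by the union of annotated exons. Alternatives were edgeR's likelihood ratio test, DESeq2 1.42.0, RLE scaling, no filter, a stricter filter of 10 counts in 3 libraries (13110 genes), the compared libraries alone, the replicate number as a block, and each library left out in turn. The main fit was tried on counts simulated for SP/CD127hi against SP/CD127-/lo Tregs, for genes at 5 CPM or more on average. The outcome is not reported here, and the alternatives were not tried in this way.

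All 10 members are named. The other lists and the markers, of which any gene may be named, and the members themselves were chosen with earlier results of these data known. Genes of like pattern are the 10 with the highest correlation at 5 CPM or more on average (log2 CPM with a prior count of 2). Il7r is on no list and was added after the data were seen, to check the CD127 labels. Values of some list genes are not reported here.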

Additional observations from a re-analysis of the deposited data

How the results depend on the processing

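RLE scaling changed none of the 25 counts of members called beyond 1.5 times and ended 1 of the 93 calls of single members, H2-DMb1 in DLN/CD127hi Tregs against tolerant CD45+CD4- cells. It moved the median log2 fold change of all genes by up to 0.25, in DLN/CD127hi Tregs against tolerant CD45+CD4- cells, and by 0.20 against DLN/naive Tregs, and no member changed direction with it. Without a filter all 93 calls held. The likelihood ratio test ended 21 of them, DESeq2 21, the stricter filter 45, a fit of the compared libraries alone 20 and the replicate block 15. The cause of these losses was not tested. Of 70 percents of the CD45+CD4- level, 13 moved beyond the spread when CD45+CD4- cells of the other mice were the reference.

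Against CD45+CD4- cells, the count of members called lower went from 8 to 5 with the stricter filter in SP/naive Tregs (7 to 8 with 1 library left out), DLN/naive Tregs (5 to 8) and tolerant CD4+ T cells (6 to 8). It went from 5 to 10 with the compared libraries alone and to 8 with the replicate block in DLN/CD127-/lo Tregs (5 to 6). In DLN/CD127hi Tregs it went from 8 to 3 with the likelihood ratio test, 3 with DESeq2, 1 with the stricter filter and 5 to 7 with 1 library left out. In naive CD4+ T cells it went from 8 to 5 with DESeq2 and 3 with the stricter filter.

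Between Treg subsets, the 2 calls in SP/CD127hi against SP/CD127-/lo Tregs became 1 with the likelihood ratio test, DESeq2 and the replicate block and 0 with the stricter filter and the compared libraries alone (2 to 3 with 1 library left out). The 4 in DLN/CD127hi against DLN/naive Tregs became 2 with the likelihood ratio test, DESeq2 and the stricter filter (4 to 5). The 4 against DLN/CD127-/lo Tregs became 1 with the likelihood ratio test and DESeq2 and 0 with the stricter filter, the compared libraries alone and the replicate block (3 to 5). The 2 in graft against SP/naive Tregs became 1 with DESeq2, 0 with the likelihood ratio test, the stricter filter, the compared libraries alone and the block, and 0 to 3 with 1 library left out. The 1 in DLN/CD127-/lo against DLN/naive Tregs became 0 under these 5 settings and 0 to 3 with 1 library left out. The 1 in SP/CD127-/lo against SP/naive Tregs became 3 with no filter, 0 with the stricter filter, the compared libraries alone and the block, and 1 to 3 with 1 library left out, and the 1 against graft Tregs became 0 under the same 3 settings and 1 to 2. The 0 in SP/CD127hi against SP/naive Tregs became 1 with no filter and 0 to 2 with 1 library left out, and the 0 against graft Tregs became 2 and 0 to 3. Against naive CD4+ T cells, the 2 in SP/naive Tregs became 1 with the likelihood ratio test and DESeq2, 5 with no filter, 0 with the stricter filter and the compared libraries alone, and 2 to 5 with 1 library left out. The 3 in SP/CD127-/lo Tregs became 1 with the stricter filter. The 3 in graft Tregs became 1 with the likelihood ratio test, DESeq2 and the block and 0 with the stricter filter and the compared libraries alone. The 0 in SP/CD127hi Tregs became 0 to 1 with 1 library left out. The 0 for the difference between gaps became 1 with DESeq2 and with no filter and 0 to 2 with 1 library left out. The log2 fold change of Ciita in graft against SP/naive Tregs ranged from 0, without graft replicate 2, to 7.70 with 1 library left out.

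Correlations of same-numbered libraries were -0.08 to 0.09, none over 0.1, so the block was kept as an alternative. Groups share mice, and whether a number marks a shared pool is not known. The replicate block moved 8 of 25 counts and left 17 within 1.5 times. Depth limits the DLN libraries most, where 3 counts stand for up to 3.55 CPM, above many of the lower levels of H2-DMb1, H2-Oa and Ciita.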
